A study of Oryza sativa with 6 samples.

Results

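The light-harvesting chlorophyll a-b binding proteins were described in rice seedlings from the rows of the deposited tables whose protein name contains "Chlorophyll a-b binding protein". This rule found 17 loci of the 6922 listed in either table. All 17 were listed in the comparison of plants labelled OsRDR3 knock-down (KD) with wild type, and 10 of them also in the comparison of OsRDR3 over-expression (OE) with wild type. The other 7 have no over-expression value among the rows analysed here.

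Seedlings of the indica cultivar Pusa Basmati 1 were sampled at 5 weeks, with 2 libraries each for wild type (WT), OE and KD. OsRDR3 is an RNA-dependent RNA polymerase, an enzyme that copies RNA into double-stranded RNA. The labels give neither the promoter of the transgenes, nor the number of independent lines, nor whether the libraries of a group came from separate plants, so the authors' p-values may reflect technical spread. Each table gives 1 FPKM value per group (fragment number scaled to transcript length and library size), pooled by the authors over the libraries, so no spread between replicates can be shown and sequencing depth is unknown.

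The listed loci named as RNA-dependent RNA polymerases bear on the label KD, 2 in the KD table and 1 in the over-expression table, all called higher. BGIOSGA002194 carries the name of such a polymerase, though not the name OsRDR3. Its wild-type level of 0.190 FPKM stands beside 69.5 FPKM in the KD-labelled libraries, and 0.198 beside 58.7 FPKM for over-expression, by the authors' deposited tables. The other one, BGIOSGA009008, had 4.396 and 7.631 FPKM in wild type and the KD-labelled libraries, and q = 0.000868 by the authors' deposited table. If BGIOSGA002194 is the target, its RNA level is higher where the label says knock-down. The pooled FPKM cannot tell RNA of the gene from RNA of a transgene, so the label can be neither upheld nor dismissed here. Every direction below is that of KD-labelled libraries, whatever the state of the gene in them.

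Chlorophyll a-b binding proteins sit in the thylakoid membrane of the chloroplast, where they hold chlorophyll a, chlorophyll b and carotenoids. They form the antennae that collect light and pass its energy to photosystem I and photosystem II, and some take part in releasing excess energy as heat (non-photochemical quenching). In green tissue their transcripts, made in the nucleus, are among the most abundant, and light and the state of the chloroplast are known to control them. In plants they are encoded by a family of nuclear genes, several of them near-identical copies.

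The 17 loci lay on 9 chromosomes, on a genome build that is not given in the sources used here. All 17 were annotated to the chloroplast, to light harvesting and to chlorophyll binding, 16 to photosystem II and 14 to photosystem I, so most carry both photosystems and cannot be given to one antenna. Narrower antenna terms can conflict with these. BGIOSGA035064, annotated to the photosystem II antenna complex, carries the term photosystem I and not photosystem II. BGIOSGA005558, annotated to the photosystem I antenna complex, carries photosystem II and not photosystem I. A response to blue light was annotated for 9 of them, to far red light for 9 and to red light for 8. The annotation was identical for BGIOSGA003922, BGIOSGA004351 and BGIOSGA030566, for the pair BGIOSGA026928 and BGIOSGA026930, and for the pair BGIOSGA014976 and BGIOSGA014978. Both pairs are close neighbours, separated by 55.3 kb on chromosome 8 and by 10.2 kb on chromosome 4. The second pair also carries the same 2 gene names. Reads of near-identical copies may have been divided between such loci, so the level of each single copy is uncertain.

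The members spanned a wide range of levels. In wild type, 11 of the 17 were among the 50 loci of highest FPKM in the KD table, and 4 were among the 10 highest. BGIOSGA003922 was the most abundant member at 5074 FPKM and BGIOSGA014976 the least at 1.73 FPKM in the authors' deposited table. FPKM is scaled by transcript length, so these levels can be compared between loci. This scaling does not correct for reads divided between near-identical copies, so ratios between the loci of a neighbouring pair remain uncertain. The high levels of these genes and of the Rubisco small chain, the small subunit of the carbon-fixing enzyme, which reached 4307 FPKM in wild type at BGIOSGA018498 in the authors' deposited table, are those of green tissue. No locus matched the marker lists for root, flower or seed, which says nothing of their level because loci with p over 0.05 are not listed.

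Chlorophyll a-b binding transcripts stood below wild type in the KD-labelled libraries. All 17 listed loci were lower, 14 of them fell by the authors' test (q under 0.05 in Cuffdiff) and 0 rose. The median member kept 28.8% of its wild-type level, and the summed level of the 17 went from 17166 to 4710 FPKM. Of the 17, 4 loci kept under 25% of wild type, 9 kept between 25% and 35%, and 3 kept over 50%. The remaining locus, BGIOSGA026930, kept 46.2%.

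**Figure D1:**
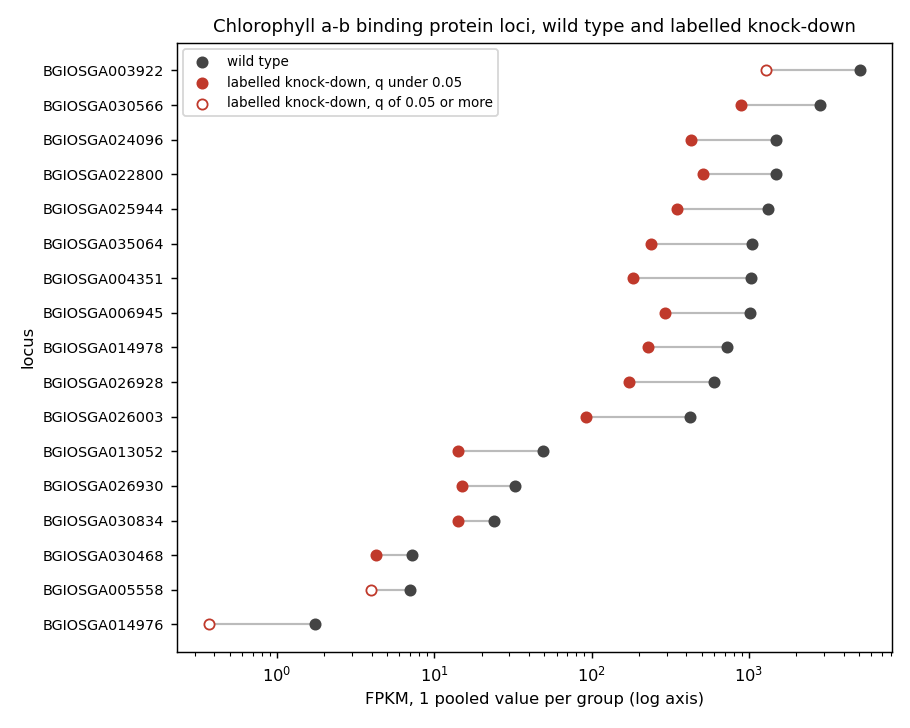
Wild-type (grey) and KD-labelled (red) FPKM of the 17 chlorophyll a-b binding protein loci, 1 pooled value per group, on a log axis; filled red points have q under 0.05 in the authors' test and open ones do not. All 17 red points lie to the left of their grey points, and 3 are open.

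These counts have to be read against the whole table. Of the 4341 loci listed for the KD-labelled libraries, 54.3% were called at q under 0.05 in either direction and 36.7% were called lower. These are at least 13.4% and 9.04% of the 17618 loci that the authors' q-values imply were tested, as some called loci are not listed. Called and at least 2-fold lower were 12 members, against 17.5% of listed and at least 4.31% of tested loci. Below wild type at any q were 65.1% of listed loci, against 17 of 17 members. The median log2 fold change was -1.80 for the members and -0.58 for all listed loci. Relative to the latter the members' median was -1.21, and each member stayed below 0. The median of all listed loci covers only loci with p of at most 0.05, so it is no measure of the unchanged loci. Because a locus is listed only at p of at most 0.05, members that did not reach this p are not seen, and 17 is not the size of the family.

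Among the loci annotated to the photosystem II antenna complex and to non-photochemical quenching, BGIOSGA035064 (chromosome 11, 6677258 to 6679414) had 1039 FPKM in WT and 238 FPKM in the KD-labelled libraries, with a log2 fold change of -2.13 and q = 0.000868 in the authors' deposited table. It is also the 1 member annotated to the light-harvesting complex II associated with photosystem II, the main antenna of that photosystem. BGIOSGA014978 (chromosome 4, 20955287 to 20956156) had 726 and 229 FPKM, a log2 fold change of -1.66 with q = 0.000868 in the authors' deposited table. Its neighbour BGIOSGA014976, with the same gene names, had 1.73 and 0.371 FPKM and did not pass (log2 fold change -2.22, q = 0.12 in the authors' deposited table). With a pseudocount of 1 FPKM the log2 fold change of this weak copy became -0.99. The strong copy exceeded the weak one 419-fold in wild type.

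Of the 3 loci with identical annotation on chromosomes 1 and 9, BGIOSGA004351 (chromosome 1, 33259308 to 33260106) had the lowest log2 fold change of all members. It had 1031 FPKM in WT and 182 FPKM in the KD-labelled libraries, so that 17.7% of its level remained (log2 fold change -2.50, q = 0.000868 in the authors' deposited table). Only 2 other loci of at least 100 FPKM in wild type had a lower log2 fold change in this table. BGIOSGA030566 (chromosome 9, 9349490 to 9350288) had 2827 and 889 FPKM, with a log2 fold change of -1.67 and q = 0.0136 in the authors' deposited table. BGIOSGA003922 (chromosome 1, 26301875 to 26302661), the most abundant member, had 5074 and 1276 FPKM, yet its log2 fold change of -1.99 came with p = 0.0117 and q = 0.071 in the authors' deposited table and was not called. The size of the difference and the call thus part ways here: BGIOSGA030834 kept 59.1% of its level and was called with q = 0.00565 in the authors' deposited table. The 2 most abundant members had higher p-values than 11 other members, each of which had the lowest p that the table holds, 5e-05.

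Light harvesting in photosystem I was annotated for 2 members that differed widely in level, and both are annotated to photosystem II as well. BGIOSGA022800 (chromosome 6, 13198707 to 13199728), annotated to light harvesting in photosystem I, had 1494 FPKM in WT and 511 FPKM in the KD-labelled libraries, and fell by 1.55 on the log2 scale with q = 0.000868 in the authors' deposited table. BGIOSGA005558 (chromosome 2, 34274654 to 34276483), the 1 member placed in the photosystem I antenna complex, had 7.03 and 3.95 FPKM and did not pass (log2 fold change -0.83, q = 0.0518 in the authors' deposited table).

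The other abundant members, whose annotation names both photosystems like that of BGIOSGA022800, fell to similar shares of wild type. BGIOSGA026003 (chromosome 7, 21449187 to 21450517) had 421 FPKM in WT and 92.3 FPKM in the KD-labelled libraries, which is 21.9% of wild type. BGIOSGA025944 (chromosome 7, 20527445 to 20528398) had 1324 and 347 FPKM, or 26.2%, and BGIOSGA024096 (chromosome 7, 20370071 to 20371306) had 1494 and 430 FPKM, or 28.8%. The latter pair are 156 kb apart, and BGIOSGA026003 lies 921 kb beyond. BGIOSGA006945 (chromosome 2, 6346009 to 6347463) went from 1017 to 291 FPKM and BGIOSGA026928 (chromosome 8, 22501821 to 22502740) from 598 to 174 FPKM. Each of these 5 loci had q = 0.000868 in the authors' deposited table.

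The weakly expressed members kept larger shares of wild type, with the exceptions of BGIOSGA013052 and BGIOSGA014976. BGIOSGA013052 (chromosome 3, 25140688 to 25141569), the 1 member whose protein name gives a type, LHCII type I, had 49.1 FPKM in WT and 14.1 FPKM in the KD-labelled libraries, a log2 fold change of -1.80 with q = 0.000868 in the authors' deposited table, like the abundant loci. BGIOSGA026930 (chromosome 8, 22445621 to 22446540) had 32.4 and 14.9 FPKM, with a log2 fold change of -1.12 and q = 0.000868 in the authors' deposited table. BGIOSGA030834 (chromosome 9, 14804768 to 14807464) had 23.8 and 14.1 FPKM. BGIOSGA030468 (chromosome 9, 6701313 to 6704071), which is also annotated to chlorophyll catabolism, had 7.26 and 4.27 FPKM, and q = 0.04 by the authors' deposited table. The pair on chromosome 8 differed 18.5-fold in wild type and 11.6-fold in the KD-labelled libraries, as the abundant copy kept less of its level.

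The 11 members at or above 100 FPKM in wild type ranged from -2.50 to -1.55 in log2 fold change, with a median of -1.80, and the 6 weaker ones from -2.22 to -0.76, with a median of -0.97. Among the 136 other listed loci at or above 100 FPKM, 119 were lower, 112 fell and 13 rose, with a median of -1.03. Lower values were thus common among the abundant loci of this table, members or not. Over the 17 members, Spearman's rho between wild-type level and log2 fold change was -0.29 (Pearson's r with log2 level -0.51), and over the 4324 other listed loci it was -0.36 (r -0.48). Without the weak copy BGIOSGA014976 the members' rho was -0.51 (n = 16, r -0.79). The points share the pooled libraries, and wild-type FPKM enters both axes, so the relation is a description only.

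**Figure D2:**
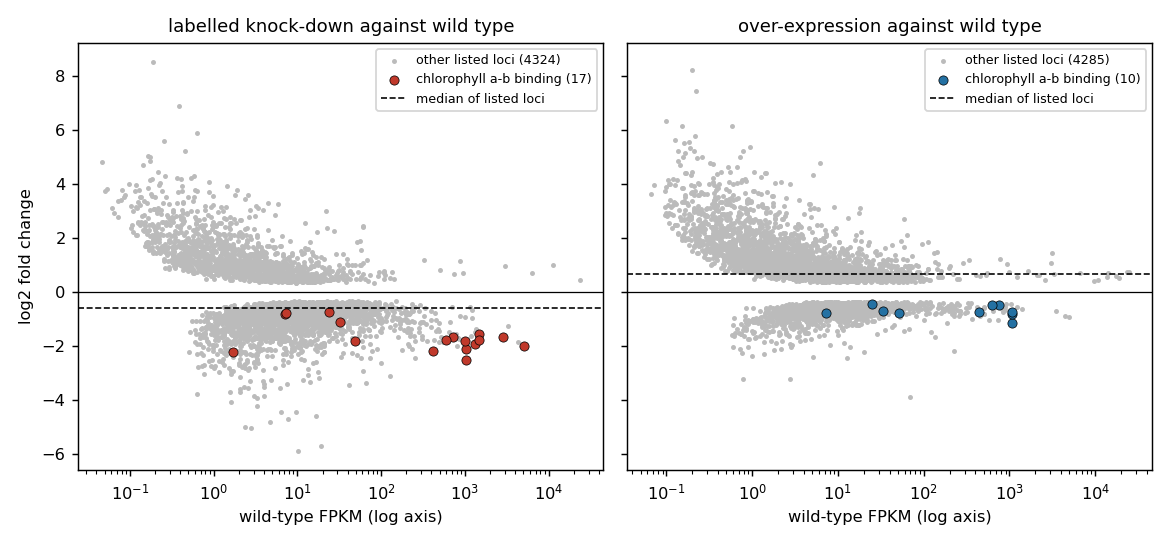
Log2 fold change against wild-type FPKM (log axis) for the loci listed in each table, chlorophyll a-b binding loci in colour and the others in grey; the dashed line is the median of listed loci. Left, 11 of the 17 members form a group at high level with log2 fold changes from -2.50 to -1.55; right, the 10 members lie between -1.13 and -0.45, where the dashed line is at 0.67. The empty band around 0 reflects that only loci with p of at most 0.05 are listed.

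In over-expression seedlings the listed chlorophyll a-b binding loci were also below wild type. All 10 listed loci were lower, 4 fell by the authors' test and 0 rose. Their median level was 59.6% of wild type, from 45.6% to 73.4%, and their summed level went from 5155 to 3060 FPKM. The 7 members without an over-expression value held 12221 of the 17166 FPKM summed over the 17 in wild type of the KD comparison. Most of the summed antenna level is thus not seen here. Why these 7 are absent is not known: loci with p over 0.05 are not listed, and some with lower p are missing too. Over all listed loci 51.5% were called in either direction and 13.6% were called lower. These are at least 12.6% and 3.32% of the 17596 loci implied to have been tested. The members' 4 of 10 is a smaller share than that of calls in either direction among listed loci. Called and at least 2-fold lower was 1 member, against 2.7% of listed and at least 0.659% of tested loci. Below wild type at any q were 32.2% of listed loci, with higher values prevailing in this table. The median log2 fold change was -0.75 for the members against 0.67 for all listed loci, a distance of -1.42. The latter again covers only loci with p of at most 0.05. Abundant loci of this table lay closer to the members: the 134 other listed loci at or above 100 FPKM in wild type had a median of -0.54, and 87 of them were lower, 54 fell and 28 rose. The 6 members of that level had a median of -0.75, and 2 of them fell.

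The 4 loci that fell were of different levels. BGIOSGA004351 had 1075 FPKM in WT and 490 FPKM in over-expression, with a log2 fold change of -1.13 and q = 0.00348 in the authors' deposited table, and was the 1 member below 50% of wild type. BGIOSGA026003 went from 439 to 260 FPKM (log2 fold change -0.76, q = 0.00846 in the authors' deposited table). The weaker BGIOSGA013052, of LHCII type I, had 51.2 and 30.1 FPKM, with a log2 fold change of -0.77 and q = 0.00192 in the authors' deposited table. BGIOSGA026930 had 33.8 and 20.8 FPKM (log2 fold change -0.70, q = 0.0111 in the authors' deposited table).

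The other 6 listed members did not pass. BGIOSGA035064, annotated to the photosystem II antenna complex, had 1084 and 615 FPKM, and q = 0.0515 by the authors' deposited table, just over the threshold. BGIOSGA006945 had 1060 and 637 FPKM, and q = 0.0701 by the authors' deposited table. BGIOSGA005558, annotated to the photosystem I antenna complex, had 7.34 and 4.32 FPKM, and q = 0.0875 by the authors' deposited table. BGIOSGA014978, BGIOSGA026928 and BGIOSGA030834 kept 70.9%, 71.8% and 73.4% of wild type, with q from 0.145 to 0.167 in the authors' deposited table.

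**Figure D3:**
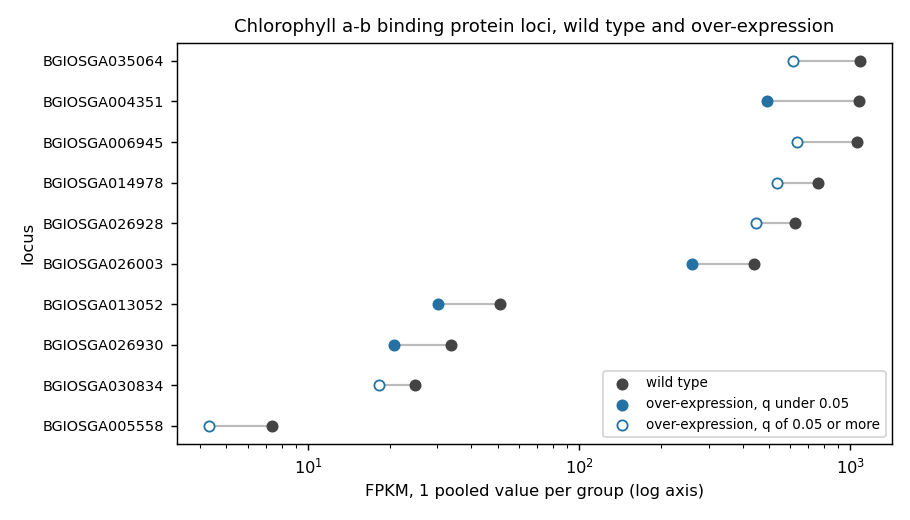
Wild-type (grey) and over-expression (blue) FPKM of the 10 chlorophyll a-b binding protein loci listed in the over-expression table, 1 pooled value per group, on a log axis; filled blue points have q under 0.05 in the authors' test. All 10 blue points lie to the left of their grey points, and 4 are filled.

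Both comparisons use the same wild-type libraries, and the tables were scaled separately. Wild-type FPKM of the 1714 loci in both tables differed by a nearly constant factor, 1.04 at the median with a range of 1.04 to 1.05, and over-expression values divided by that factor can be set beside those of the KD-labelled libraries. On this common scale BGIOSGA004351 had 1031 FPKM in wild type, 470 in over-expression and 182 in the KD-labelled libraries. BGIOSGA035064 had 1039, 590 and 238 FPKM in the same order, and BGIOSGA026003 had 421, 249 and 92.3 FPKM. BGIOSGA013052 had 49.1, 28.8 and 14.1 FPKM, whereas BGIOSGA005558, with 7.03, 4.15 and 3.95 FPKM, was nearly level between the transgenic groups.

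All 10 loci had the order wild type, over-expression, KD-labelled libraries from high to low. They are only the members listed in both comparisons, which share the wild-type libraries. The share of the 1714 loci with this full order was not counted. The ratio of over-expression to the KD-labelled libraries was 2.17 at the median and ran from 1.05 for BGIOSGA005558 to 2.70 for BGIOSGA026003. Over the 1714 loci in both tables this ratio had a median of 1.26 and was above 1 for 73.8%. The difference between the transgenic groups was not tested, as the tables hold no values of single libraries and no comparison of these groups.

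**Figure D4:**
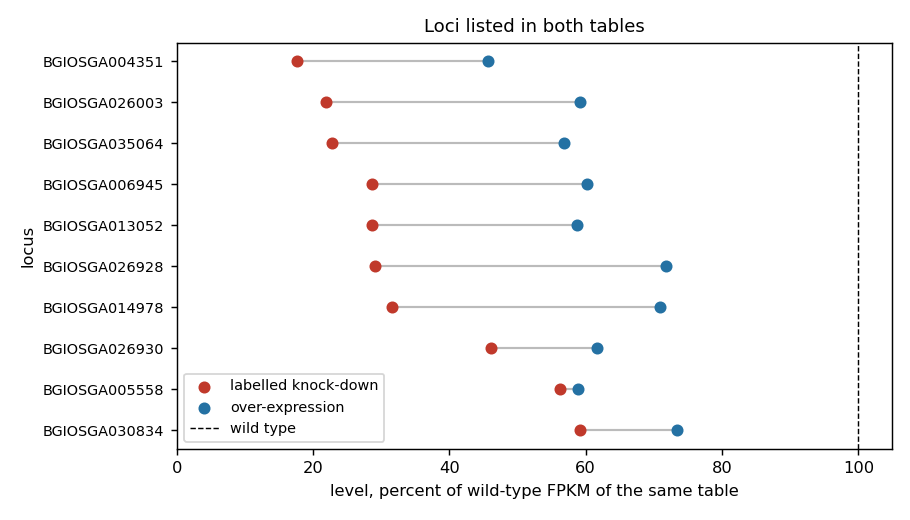
Level of the 10 loci listed in both tables as a percent of wild-type FPKM of the same table, for the KD-labelled libraries (red) and over-expression (blue); the dashed line is wild type. The red points range from 17.7% to 59.1% and the blue ones from 45.6% to 73.4%, and the points of BGIOSGA005558 nearly meet at 56.2% and 58.9%.

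Other loci annotated to light harvesting or chlorophyll binding, without the protein name, were lower too. In the KD-labelled libraries all 5 that were listed fell, and the list's median log2 fold change was -1.70. Over all listed loci 36.7% were called lower there, and 13.6% in over-expression. The most abundant, BGIOSGA025153, had 1189 FPKM in WT and 387 FPKM there, and BGIOSGA016373 had 809 and 203 FPKM in the authors' deposited table. BGIOSGA013051, whose identifier is next to that of the LHCII type I locus BGIOSGA013052, had 11.2 and 3.39 FPKM, and q = 0.000868 by the authors' deposited table. In over-expression 2 of 5 fell, BGIOSGA016373 and BGIOSGA030982, and the authors' deposited table gives them -0.72 and -0.60 in log2 fold change.

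Genes that work beside the antennae were lower as well in the KD-labelled libraries, where 36.7% of all listed loci were called lower. Of the 136 listed loci outside the members at or above 100 FPKM in wild type, 112 fell. Of the list for photosystem I, which the antennae feed, 9 of 9 listed loci fell, and the list's median log2 fold change was -1.69. The list is not one of subunits only: BGIOSGA039356 is named the assembly protein Ycf4, and its log2 fold change of -0.66 was the nearest to wild type among them. PSAH (BGIOSGA020347), a subunit at which mobile antenna proteins dock on photosystem I in Arabidopsis, had 490 and 137 FPKM in the authors' deposited table. Of the photosystem II list 14 of 14 fell, with a median of -1.38, among them the oxygen-evolving enhancer protein 3 (BGIOSGA025897), a protein of the water-splitting side, with 616 and 186 FPKM in the authors' deposited table. The chloroplast signal recognition particle subunit cpSRP43 (BGIOSGA011517), which escorts newly imported antenna proteins to the thylakoid, was the 1 listed locus for their insertion and had 15.1 and 8.82 FPKM, and q = 0.00352 by the authors' deposited table.

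Chlorophyll synthesis provides the pigment without which antenna proteins are not stable. Of 39 listed loci matched to it by annotation or name, 30 were called lower and 0 higher. The list is not one of pathway enzymes only: BGIOSGA011768 is named a glyceraldehyde-3-phosphate dehydrogenase, and BGIOSGA028984 is also in the photosystem II list. The list's median log2 fold change was -0.75, less far from the -0.58 of all listed loci than the antennae. NADPH-protochlorophyllide oxidoreductase (BGIOSGA017356), the light-dependent step, had 644 and 228 FPKM, and the magnesium chelatase subunit CHLH (BGIOSGA012530) had 244 and 78.8 FPKM in the authors' deposited table. Of 10 listed loci annotated to chlorophyll breakdown 4 fell and 0 rose, close to the 36.7% called lower among all listed loci, and 3 were above wild type. Their median of -0.51 lay slightly above the -0.58 of all listed loci. Of the Rubisco small chain, a leaf marker, 4 of 4 listed loci fell, with a median of -0.92, and their summed level was 39.8% of wild type. The most abundant of them, BGIOSGA018498, went from 4307 to 1193 FPKM by the authors' deposited table, or 27.7% of wild type, beside 28.8% for the median antenna locus. In these whole seedlings a smaller share of green cells and less of each RNA per cell cannot be told apart, and the part of this marker's change in the antenna result was not tested.

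In over-expression most called loci of these lists were again lower, where 13.6% of all listed loci were called lower and 51.5% in either direction. Of the 134 listed loci outside the members at or above 100 FPKM in wild type, 54 fell and 28 rose, with a median log2 fold change of -0.54. Of the photosystem I list 5 of 8 listed loci fell, and the list's median log2 fold change was -0.65. The assembly protein Ycf4 (BGIOSGA039356) had the lowest value of this list, -1.45. PSAH had 511 and 292 FPKM, and q = 0.00105 by the authors' deposited table. Of the photosystem II list 9 of 12 fell and 1 rose, with a median of -0.60. The one that rose, BGIOSGA025148, annotated to the oxygen-evolving complex, had 542 and 881 FPKM in over-expression (log2 fold change 0.70, q = 0.00614) but 520 and 166 FPKM in the KD-labelled libraries, in the authors' deposited tables. Of 29 listed loci matched to chlorophyll synthesis 14 fell and 0 rose, with a median of -0.56, and of 7 breakdown loci 1 fell, which is about the share over all listed loci. Among 4 listed Rubisco small chain loci 0 fell and 1 rose. The locus that rose, BGIOSGA007558, had only 2.06 FPKM in wild type. The other 3 were lower but not called. The most abundant of them, BGIOSGA018498, had 4491 and 2432 FPKM, and q = 0.189 by the authors' deposited table. The summed level of the 4 loci was 60.3% of wild type, beside 59.4% for the 10 antenna members. The part of this marker's change in the antenna result was not tested here either. No listed locus matched the lists of early light-induced proteins or of the kinases and phosphatases of light harvesting in either table.

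**Figure D5:**
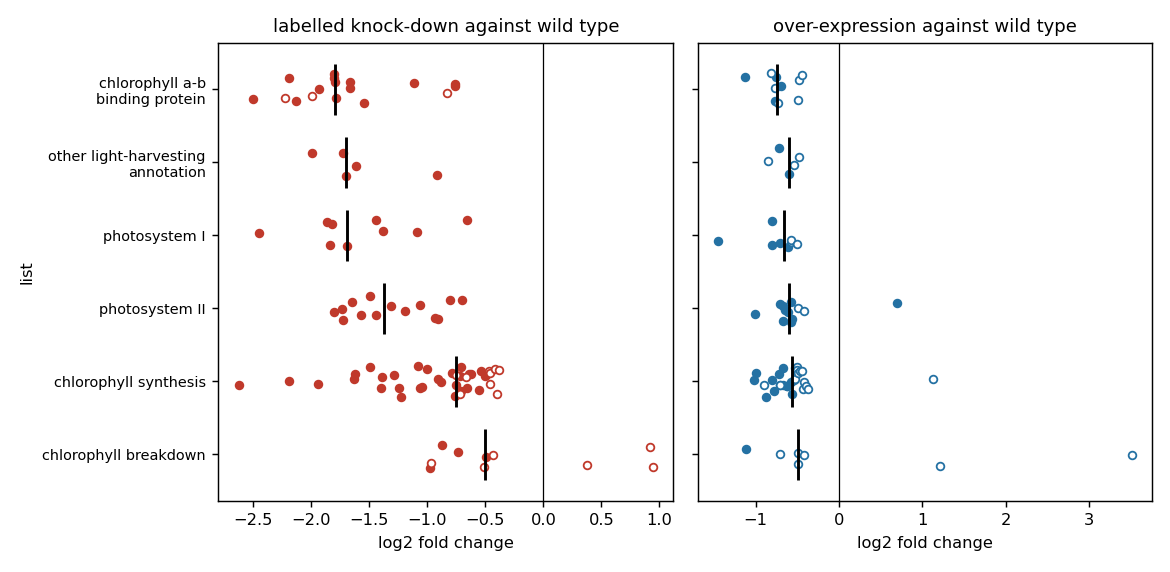
Log2 fold change of the listed loci of 6 lists in the KD-labelled libraries (left) and over-expression (right), each against wild type; 1 point per locus, filled where q is under 0.05 in the authors' test, with the list's median as a black bar. The medians on the left run from -1.80 for the chlorophyll a-b binding proteins to -0.51 for chlorophyll breakdown, and on the right from -0.75 to -0.49.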

How the data were processed

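Cufflinks 2.2.1 and Cuffdiff were used, per the submitters' processing notes; the aligner, build and Cuffdiff version were not stated there. Per the file headers, the authors gave FPKM as a single pooled value for each group. Their deposited log2 fold change was checked to equal the log2 ratio of those values without a pseudocount. The deposited p-values and q-values are the authors'. A locus was called at q under 0.05 over all loci the authors tested. The 17618 and 17596 tests were recovered from q over p as the number giving whole ranks (relative tolerance 3e-06) for 89.7% and 91.1% of p levels, a step tested on simulated data. The q-values imply more loci at the lowest p, 5e-05, than the 912 and 721 listed for the KD-labelled libraries and over-expression. Some loci with p of at most 0.05 are thus missing here, and counts are lower bounds. Informative protein names cover 766 and 790 of the listed loci, so further members may stand under other names.

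Every member is described. From each other list up to 6 called loci of highest FPKM were eligible (2 where none was called), and some of these are named. Members and lists were chosen with earlier results of these data known. Lists were matched by name and Gene Ontology term and exclude the members. The level of 100 FPKM was chosen after values were seen. No sequences are shown, since none was in the references used. The reference gene table matched 0 of the 6922 locus identifiers, of which 6884 are BGIOSGA identifiers. Columns of unassigned samples numbered 0. Python 3.11.15, pandas 2.3.3 and scipy 1.17.1 were used.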

Additional observations from a re-analysis of the deposited data

How the results depend on the processing

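The number of called loci in the libraries labelled knock-down, 14, ranged from 12 to 19 over the alternatives (q under 0.01, at least 1 FPKM, centring on the median of listed loci, at least a 2-fold difference, Gene Ontology terms in place of the protein name, and, added after seeing the data, leaving out the pair that shares gene names). In over-expression the 4 called loci became 3 at q under 0.01, 6 with Gene Ontology terms and 1 when at least a 2-fold difference was required. The median log2 fold change in the libraries labelled knock-down, -1.80, became -1.73 with a pseudocount of 1 FPKM and -1.21 after centring. In over-expression, -0.75 became -0.70 with the pseudocount, -1.42 after centring and -0.76 for members with 1 gene name. In the libraries labelled knock-down, each of the 17 members kept its direction after centring, though the centre is that of listed loci only. A pseudocount cannot change a direction, and centring in over-expression could only lower the members further, so neither is a test of direction. No paired analysis was possible because the tables hold 1 pooled value per group, and leaving out a replicate was not run for the same reason. Depth is unknown, and the limits it sets cannot be given.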
